A study of Mus musculus with 30 samples.

Results

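The TNF ligand and receptor superfamily was followed in RNA sequencing data from 30 subcutaneous B16F10 tumors, a melanoma line transplanted into mice. Members were chosen by symbol alone: every row of the deposited table named Tnfsf or Tnfrsf, together with Tnf, Lta, Ltb, Ltbr, Fas, Fasl and Cd27. The choice gave 36 of the 18975 genes. Of these, 13 encode ligands and 21 encode receptors. The other 2 are Tnfsf12Tnfsf13, a readthrough transcript of neighbouring ligand genes, and the antisense gene Tnfsf13os. Tnfsf4, Tnfsf15, Tnfrsf13c, Tnfrsf17, Cd70 and Cd40lg have no row under these symbols in the deposited table and so were not analysed here. Cd40 was left out of the choice and is given only with the genes around the family.

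The host mice were female C57BL/6 animals, either wild type (WT, ARE-del +/+ in the labels) or heterozygous for ARE-del (HET, ARE-del +/-). The allele lacks an AU-rich element of the mRNA of Ifng, the interferon-gamma gene. Because cultured tumor cells were injected, the allele belongs to the host cells of each tumor and not to the melanoma cells. Treatment began 7 days after injection and was given 2 times a week. Mice received control rat IgG2A (dose not given in the sources used here), anti-PD1, an agonist antibody to CD40, or both antibodies (the combination). Each of the latter antibodies was given at 0.25 mg. WT hosts gave 5 tumors under IgG, 4 under anti-PD1, 3 under anti-CD40 and 3 under the combination, and HET hosts gave 4, 3, 4 and 4. The labels give no age and do not say that replicates are separate animals, so p-values cover the spread between these samples only.

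The superfamily works as pairs. Ligands are trimeric membrane or secreted proteins, and receptors are membrane proteins that gather TRAF adaptors, which lead to NF-kappaB and MAP kinase signalling, or, in the case of the death receptors, FADD and caspase-8. TNF and lymphotoxins drive inflammation and lymphoid organ structure, Fas ligand and TRAIL can trigger death of target cells, and OX40, GITR, CD27 and the receptor encoded by Tnfrsf9 costimulate T cells. BAFF and APRIL support B cells, and RANK ligand acts on osteoclasts and dendritic cells. CD40, the target of the agonist antibody, is itself a TNF receptor that activates antigen-presenting cells.

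Libraries held 17.6 M to 36 M reads (median 24.9 M), and 1 read was worth 0.0276 to 0.0596 CPM (reads scaled to library size). The melanocyte markers were present in all libraries, with a summed level of 19463 to 57652 CPM. HET IgG replicate 2 stood apart, with 1554 genes without a read against at most 1141 in any other library. The library descriptions carry L numbers that the labels do not explain. L5 holds only WT tumors, L7 and L8 hold only HET tumors, and L6 holds 7 WT tumors and HET IgG replicate 1. That HET tumor is the only one to share an L number with WT tumors, so values of HET against WT with the L number in the model rest on it. L numbers also follow treatment in part. All HET combination tumors are L8, all HET anti-PD1 tumors L7, all WT IgG tumors L5, and all WT anti-CD40 and WT combination tumors L6. Among HET IgG tumors only replicate 4 is L8. Where groups of a genotype share no L number, treatment and L number cannot be told apart from their values alone. In bulk tumor RNA, fewer cells of a type and less RNA per cell cannot be told apart either.

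Promoter sequences are shown for 4 members whose values are set against each other below: Tnfrsf1a, which had the highest level of all members, Tnfrsf1b and Tnfsf10, which were highest in HET tumors that received anti-CD40, and Tnfrsf9, which was highest in WT tumors under anti-PD1. Each is the 250 bases upstream of a start site, 5′ to 3′ on the strand of the gene, from RefSeq on GRCm38.p6. Capitals mark matches to the gamma-interferon-activated site (GAS, TTCNNNGAA), the core of the interferon-stimulated response element (ISRE, GAAANNGAA, read on either strand) and the kappaB motif.
Tnfrsf1a, chr6:125349473-125349722, plus strand: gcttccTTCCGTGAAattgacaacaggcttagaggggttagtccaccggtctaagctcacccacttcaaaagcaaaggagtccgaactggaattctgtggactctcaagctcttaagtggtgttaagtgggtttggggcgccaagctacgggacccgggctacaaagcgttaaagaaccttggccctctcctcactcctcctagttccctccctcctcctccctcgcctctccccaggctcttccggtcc
Tnfrsf1b, chr4:145246871-145247120, minus strand: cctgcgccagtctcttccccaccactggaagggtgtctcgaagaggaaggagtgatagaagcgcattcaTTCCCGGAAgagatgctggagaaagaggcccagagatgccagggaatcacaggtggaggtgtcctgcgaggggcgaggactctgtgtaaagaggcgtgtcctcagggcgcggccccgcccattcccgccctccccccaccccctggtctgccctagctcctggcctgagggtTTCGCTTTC
Tnfrsf9, chr4:150927749-150927998, plus strand: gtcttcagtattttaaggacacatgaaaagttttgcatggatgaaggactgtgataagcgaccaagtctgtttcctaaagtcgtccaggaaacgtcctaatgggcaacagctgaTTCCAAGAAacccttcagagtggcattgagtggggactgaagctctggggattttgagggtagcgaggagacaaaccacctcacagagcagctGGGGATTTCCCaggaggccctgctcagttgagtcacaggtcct
Tnfsf10, chr3:27316827-27317076, plus strand: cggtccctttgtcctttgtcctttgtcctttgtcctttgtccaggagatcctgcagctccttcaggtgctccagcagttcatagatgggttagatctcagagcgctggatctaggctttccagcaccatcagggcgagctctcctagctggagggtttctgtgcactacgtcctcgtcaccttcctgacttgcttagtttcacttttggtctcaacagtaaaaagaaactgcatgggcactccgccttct

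The Tnfrsf1a window holds the GAS letters TTCCGTGAA, starting 244 bases upstream. The Tnfrsf1b window holds TTCCCGGAA, starting 181 bases upstream, and an ISRE core on the other strand, 9 bases upstream. In Tnfrsf9 the GAS letters TTCCAAGAA start 136 bases upstream and a run of overlapping kappaB matches lies 43 bases upstream. This window belongs to 1 of 2 listed start sites of Tnfrsf9, and the other window held no match. The Tnfsf10 window shows none of the letters searched. Letters of different motifs did not overlap in the windows printed.

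RefSeq windows of 300 bases, from 250 before to 50 after the start, were found for 28 of the 36 members, 32 windows in all. GAS letters occurred in 9 of them (28.1%), belonging to Fas, Lta, Ltb, Tnfrsf18, Tnfrsf19, Tnfrsf1a, Tnfrsf1b, Tnfrsf25 and Tnfrsf9, against 8.30% of 32851 windows of all genes. The ISRE core occurred in 5 (15.6%), against 8.56%, and the kappaB motif in 4 (12.5%), against 8.46%. Both strands were searched. Among the holders of GAS letters the ratio of highest to lowest group mean ran from 1.23 for Tnfrsf1a to 9.21 for Lta, which had 61 reads. It was 3.67 for Tnfrsf1b and 8.16 for Tnfrsf18. For Tnfsf10, whose window showed none of the letters, it was 4.80. Whether any match acts in these tumors was not tested.

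Receptor transcripts made up most of the superfamily signal in these tumors. Member genes together took 0.0445% of all reads, and ligands took 4.93% of that. Tnfrsf1a and Ltbr held 59.2% of the member reads, and 75.5% with Tnfrsf12a. Per kilobase of exon, so that genes can be compared, mean levels over the 30 libraries were 54.1 CPM per kb for Tnfrsf1a (TNF receptor 1), 52.7 for Ltbr (lymphotoxin beta receptor) and 37.3 for Tnfrsf12a (the TWEAK receptor Fn14). The highest ligand was Tnfsf9, which binds the receptor encoded by Tnfrsf9, at 10.6 CPM per kb. Tnfrsf11b (osteoprotegerin) followed at 6.07, Tnfrsf9 at 3.16 and Tnfsf12 (TWEAK) at 2.92. The lowest were Tnfsf11 (RANK ligand) at 0.0289 and Tnfsf8 (CD30 ligand) at 0.0130.

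**Figure D1:**
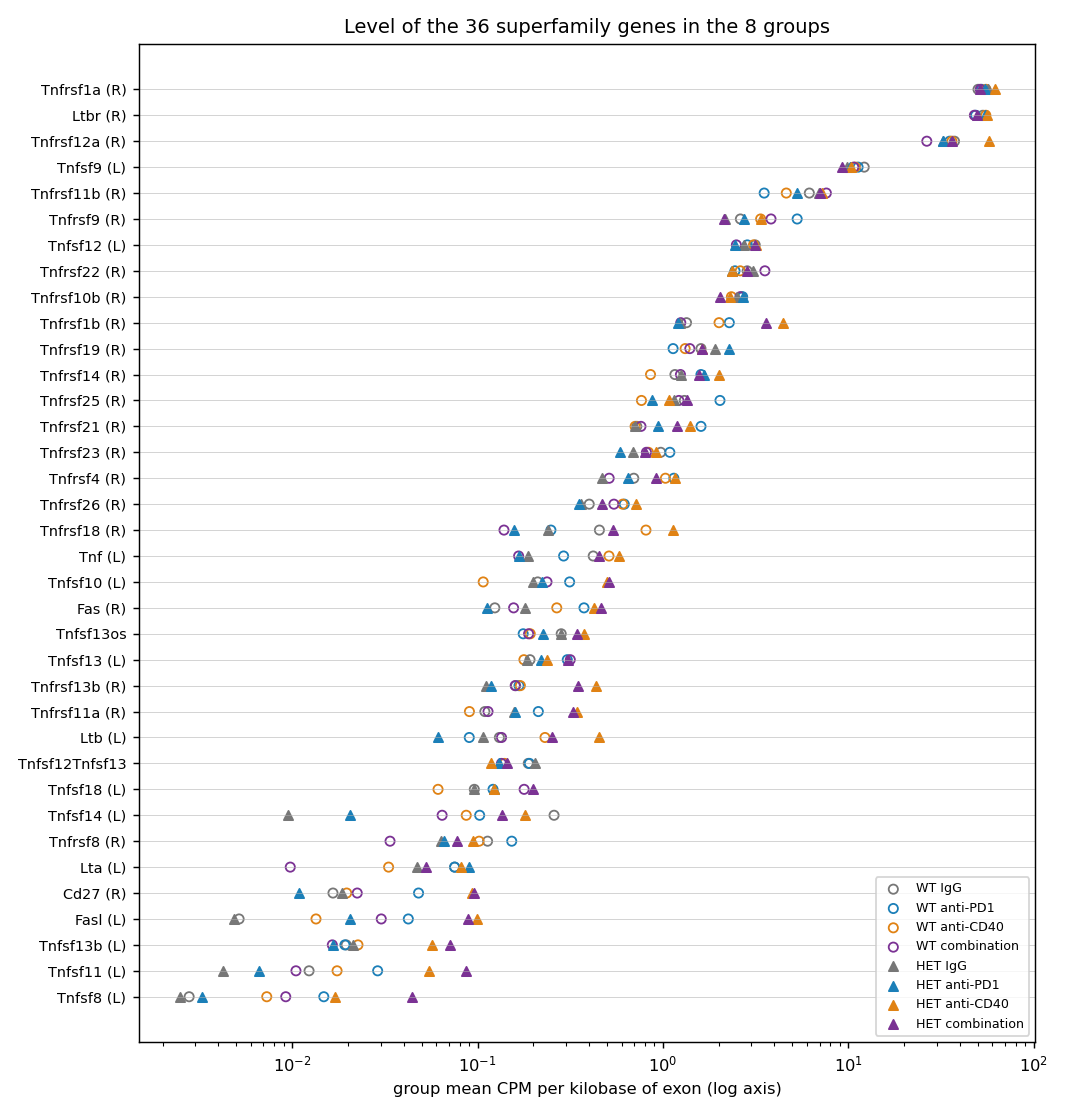
Mean level of each of the 36 genes in the 8 groups, in CPM per kilobase of exon on a log axis, with genes ordered by mean level (R, receptor; L, ligand; circles, WT; triangles, HET). The 8 means lie close together for Tnfrsf1a, at a mean of 54.1 CPM per kb, and are spread widely for Tnfsf11, at 0.0289.

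The 3 most abundant receptors and Tnfsf9 differed in how much they varied. Within groups the SD of the log2 level was 0.25 for Tnfrsf1a, 0.24 for Ltbr, 0.21 for Tnfsf9 and 0.71 for Tnfrsf12a. The median over the 23 members with enough reads to be tested (log2 CPM above 0 in at least 3 libraries) was 0.70, against 0.37 for all 15002 such genes. The sets were not matched for level, and some tested members were scarce, such as Tnf at a mean of 0.584 CPM (SD of log2, 0.91). The medians therefore do not show that the family varies more than other genes of like level. Tested members were 4 ligands and 19 receptors, 63.9% of the family against 79.1% of all genes, and no member passed through 1 group alone. The other 13 are described by their reads.

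In HET tumors that received anti-CD40, most superfamily transcripts had a higher mean than in HET IgG tumors. Tnfrsf1b (TNF receptor 2), Fasl (Fas ligand) and Tnfrsf13b (TACI) were higher in every such tumor than in every HET IgG tumor. Fasl had only 62 reads in all, so its separation rests on very few reads per tumor. No member passed the test after adjustment in any of the 17 comparisons. These compare each treatment with IgG, HET with WT under each treatment, the combination with single antibodies, and the treatment response of HET with that of WT. In limma's test with Benjamini-Hochberg adjustment over 15002 genes, calls made up 0% of the genes tested in every comparison. Voom on the recovered reads also called none. Counts below are therefore at an unadjusted p under 0.05, or of groups that do not overlap, over all 36 members with no filter, and each stands beside the same share of 18975 genes. They describe these libraries. All treatment comparisons within a genotype use the same IgG tumors.

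Under anti-CD40, 32 of 36 members had a higher mean log2 level in HET tumors than under IgG (88.9%), against 51.8% of all genes. At unadjusted p under 0.05, 12 stood higher (33.3%), against 9.0%, and 0 lower. They were Tnfrsf1b, Fasl, Tnfrsf13b, Tnfrsf26, Tnfrsf21, Tnfsf10, Tnfrsf4, Ltb, Tnfsf14, Tnf, Tnfsf11 and Tnfrsf11a. In 3 of them the groups did not overlap (8.33%, against 3.37%): Tnfrsf1b, Fasl and Tnfrsf13b. The 12 include members of all 5 roles described below.

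The combination in HET tumors was compared with the same 4 IgG tumors, so the members of both comparisons share their controls. Here 29 members were higher (80.6%, against 52.2% of genes), 9 at unadjusted p under 0.05 (25.0%, against 7.37%). Those 9 were Fasl, Tnfsf8, Tnfrsf1b, Tnfsf11, Tnfsf10, Tnfsf14, Tnfsf13b, Tnfrsf13b and Tnfrsf4. Groups did not overlap for 6 (16.7%, against 4.06%): Fasl, Tnfrsf1b, Tnfsf10, Tnfsf14, Tnfrsf13b and Tnf. Against HET anti-PD1, the combination stood higher for 8 at unadjusted p under 0.05 (22.2%, against 6.65%), among them Fas, Cd27, Ltb and Tnfrsf18. Groups did not overlap for 8 higher members (22.2%, against 9.46%) and for 1 lower member, Tnfrsf10b (2.78%, against 8.62%). The latter share was below that of all genes. Between the combination and anti-CD40 alone no member reached unadjusted p under 0.05.

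HET tumors were also set against WT tumors of the same treatment. Under anti-CD40, 31 members were higher in HET (86.1%, against 46.7% of genes), 7 at unadjusted p under 0.05 (19.4%, against 3.46%). The 7 were Tnfsf10, Tnfrsf11a, Fasl, Tnfrsf1b, Tnfrsf21, Tnfrsf14 and Tnfrsf13b, and groups did not overlap for Tnfsf10, Tnfrsf11a and Tnfrsf21 (8.33%, against 2.53%). Under the combination, 28 were higher (77.8%, against 51.9%), 5 of them at unadjusted p under 0.05 (13.9%, against 4.83%): Tnfrsf1b, Tnfsf13b, Tnfsf11, Tnfsf8 and Tnfrsf11a. Groups did not overlap for 6 higher members (16.7%, against 6.81%) and for 1 lower, Tnfrsf10b (2.78%, against 5.13%), a share below that of all genes.

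Without anti-CD40, fewer members were higher in HET than in WT. Under IgG, 12 members were higher in HET (33.3%, against 47.9% of genes). Tnfsf14, which encodes the lymphotoxin-like ligand LIGHT, was lower at unadjusted p under 0.05 (2.78%, against 1.41%) and without overlap (2.78%, against 0.343%). Under anti-PD1, 9 were higher in HET (25.0%, against 51.6%). Tnfrsf8 was lower at unadjusted p under 0.05 (2.78%, against 1.53%), Tnfrsf25 and Tnfsf14 were lower without overlap (5.56%, against 2.36%), and Tnfrsf19 was higher without overlap (2.78%, against 2.7%). Each of these shares is 1 or 2 members, near the share of all genes or too few to read against it. The Tnfsf14 groups tied in reads and were parted only by library scaling. Under IgG, WT replicate 1 and HET replicate 4 both held 1 read, worth 0.0460 and 0.0377 CPM. Under anti-PD1, WT replicate 4 and HET replicate 1 both held 2 reads, at 0.0475 and 0.0382 CPM per read.

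**Figure D2:**
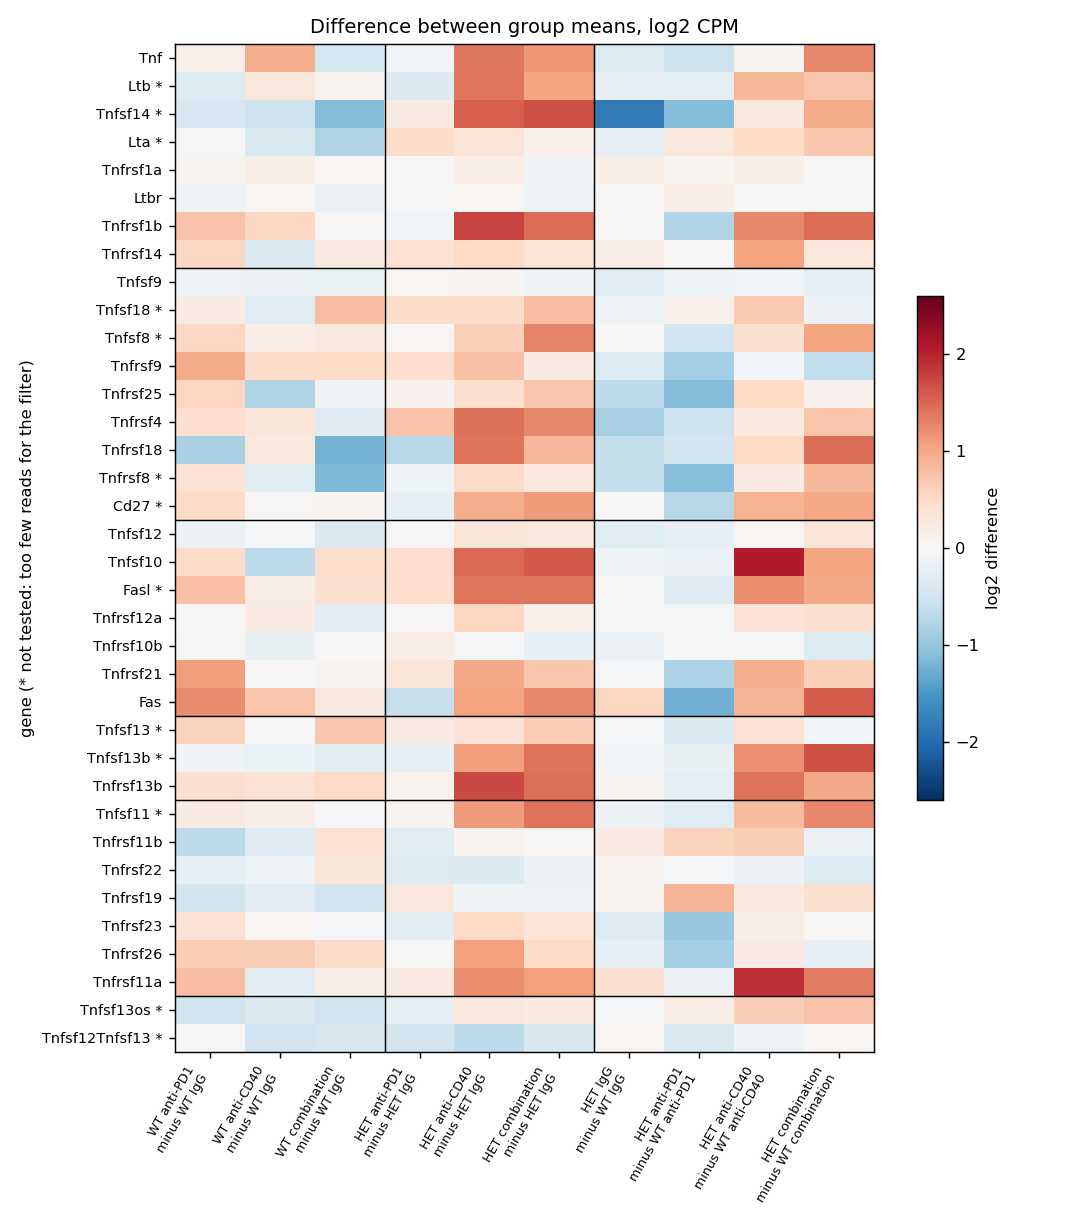
Colors give the difference between group means of log2 CPM for each of the 36 genes (rows, by role) in 10 comparisons (columns), red where the first group was higher and blue where it was lower, with an asterisk for genes below the filter. Red prevails for HET anti-CD40 against HET IgG (32 of 36 above 0), and both colors are found for HET anti-PD1 against HET IgG (19 of 36 above 0).

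In the remaining comparisons with IgG few members stood apart. Against WT IgG, 23 members were higher under anti-PD1 (63.9%, against 47.7%), 17 under anti-CD40 (47.2%, against 50.2%) and 19 under the combination (52.8%, against 49.6%). Tnfrsf21 was higher under anti-PD1 at unadjusted p under 0.05 (2.78%, against 2.04%). Tnfrsf8, which encodes the receptor CD30, was lower under the combination (2.78%, against 0.353%). Tnfrsf8 and Tnfrsf18 did not overlap (5.56%, against 0.928%). For Tnfrsf8 the lack of overlap rested on library scaling, as WT combination replicate 3 held more reads than WT IgG replicate 1. A read was worth 0.0351 CPM in the former and 0.0460 CPM in the latter. In HET tumors under anti-PD1, 19 members were above IgG (52.8%, against 52.6%), and only Tnfrsf22 was lower without overlap (2.78%, against 1.12%). The shares at unadjusted p under 0.05 or without overlap here are 1 or 2 members. They are near the share of all genes or too few to read against it.

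Within WT tumors the combination was compared with each antibody. Against anti-PD1, Tnfrsf11b and Tnfrsf22 were higher at unadjusted p under 0.05 (5.56%, against 0.827%), and Tnfrsf8 and Tnfrsf21 lower (5.56%, against 1.4%). Groups did not overlap for Tnfrsf11b, which was higher (2.78%, against 2.08%), and Tnfrsf8, which was lower (2.78%, against 2.07%). For Tnfrsf8, WT combination replicate 3 and WT anti-PD1 replicate 4 held the same number of reads, worth 0.0351 and 0.0475 CPM each. Against anti-CD40, Tnfsf18 and Tnfsf10 were higher without overlap (5.56%, against 5.45%), and Tnf and Tnfrsf18 lower (5.56%, against 7.1%). All shares without overlap in these 2 comparisons were near or below those of all genes. The shares at unadjusted p under 0.05 are 2 members each, too few to read against all genes.

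Whether HET and WT tumors responded unequally was tested as an interaction. The term is the HET difference from IgG minus the WT difference from IgG, so a value above 0 can come from either genotype. For anti-CD40 it was above 0 at unadjusted p under 0.05 for Tnfsf10 and Tnfsf14 (5.56%, against 1.85% of genes). For the combination it was so for Tnfsf14, Tnfrsf8 and Tnfrsf18 (8.33%, against 3.19%). Under the combination the log2 differences from IgG of Tnfrsf8 were 0.30 in HET and -1.17 in WT. Those of Tnfrsf18 were 0.84 and -1.22, and those of Tnfsf14 were 1.66 and -1.12. None passed after adjustment. The interaction for Tnfsf10 under anti-CD40 was 2.16 ± 0.88 on the log2 scale (SE; limma adjusted p = 1.00), and that for Tnfrsf1b was 1.21 ± 0.72 (adjusted p = 1.00).

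Tnfrsf1b encodes TNF receptor 2, which is found mainly on immune and endothelial cells and prefers membrane-bound TNF. Its gene (ENSMUSG00000028599.6) lies on chromosome 4, at 145213463 to 145246870 of mm10 on the minus strand. HET IgG tumors held 4.23, 2.98, 5.81 and 5.81 CPM. Under anti-CD40 the HET tumors held 10.3, 9.97, 26.1 and 21.6 CPM, and under the combination 14.5, 7.57, 23.2 and 9.76 CPM. All 8 HET tumors that received anti-CD40 were above all 4 HET IgG tumors. HET anti-PD1 tumors held 6.26, 2.61 and 5.01 CPM. WT tumors held 2.8, 3.58, 2.77, 10.5 and 5.98 CPM under IgG, 14.6, 10.5, 6.81 and 2.99 under anti-PD1, 3.37, 13.7 and 5.94 under anti-CD40 and 2.94, 4.9 and 6.47 under the combination. Single WT tumors reached 14.6 CPM, within the range of the HET tumors that received anti-CD40, so high values were not confined to HET.

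The HET mean of Tnfrsf1b was 4.71 ± 1.37 CPM (SD, n = 4) under IgG, 17 ± 8.12 CPM (SD, n = 4) under anti-CD40 and 13.8 ± 6.94 CPM (SD, n = 4) under the combination. The anti-CD40 mean was 3.61-fold that of IgG, a log2 difference of 1.75 ± 0.50 (SE; limma adjusted p = 0.184). The combination mean was 2.92-fold that of IgG, 1.45 ± 0.50 (limma adjusted p = 0.349). Exact permutation tests over these samples, two-sided and unadjusted, gave p = 0.0286 for each, the smallest that 4 against 4 allows. Both pairs were named because the groups did not overlap, so that p repeats the choice. The combination in HET was 2.89-fold its level in WT, 1.45 ± 0.54 (limma adjusted p = 0.719). With keratinocyte and muscle scores in the model the 3 differences of Tnfrsf1b, in this order, were 1.14, 0.86 and 0.78. With the L number in the model they were 1.76, 1.05 and 0.95. Among the L7 libraries alone, 3 HET anti-CD40 and 2 HET IgG tumors differed by 1.72.

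The other 3 receptors of TNF, lymphotoxin and LIGHT varied less between groups. WT tumors held Tnfrsf1a at 102 to 163 CPM under IgG, 114 to 160.2 under anti-PD1, 136 to 151 under anti-CD40 and 112 to 157 under the combination. HET tumors held 111 to 214 under IgG, 126 to 151 under anti-PD1, 132 to 182 under anti-CD40 and 108 to 144 under the combination. Its highest group mean was 1.23-fold its lowest. The range of Ltbr in WT tumors was 109 to 141 CPM under IgG, 101 to 145 under anti-PD1, 116 to 143 under anti-CD40 and 99.5 to 121 under the combination. The range in HET tumors was 103 to 192 under IgG, 111 to 156 under anti-PD1, 113 to 149.7 under anti-CD40 and 90.4 to 134 under the combination. The ratio of the highest to the lowest group mean was 1.17. Every pair of the 8 groups overlapped for both genes. Their highest values, 214 and 192 CPM, were both in HET IgG replicate 2, the library that stood apart in genes without a read. Without it the HET IgG means were 125 CPM for Tnfrsf1a and 111 CPM for Ltbr. Tnfrsf14, the receptor of LIGHT, was lowest in WT anti-CD40, at 1.23 ± 0.635 CPM (SD, n = 3), and highest in HET anti-CD40, at 2.88 ± 1.53 CPM (SD, n = 4). The Tnfrsf14 range of HET anti-CD40, 0.827 to 4.09 CPM, overlapped that of WT anti-CD40, 0.766 to 1.96.

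The ligands of these receptors were scarce. Tnf, the cytokine itself, had 440 reads over the 30 libraries. For Tnf, WT tumors spanned 0.0442 to 2.43 CPM under IgG, 0.233 to 0.862 under anti-PD1, 0.5 to 1.2 under anti-CD40 and 0.141 to 0.446 under the combination. The HET tumors spanned 0.131 to 0.499 under IgG, 0.177 to 0.42 under anti-PD1, 0.417 to 1.76 under anti-CD40 and 0.54 to 1.2 under the combination. The HET combination tumors all lay above the HET IgG tumors for Tnf, and the highest library of all was a WT IgG tumor at 2.43 CPM. Ltb (lymphotoxin beta) had 220 reads. Levels of Ltb were 0.0566 to 0.401 CPM under IgG, 0.0466 to 0.238 under anti-PD1, 0.0416 to 0.814 under anti-CD40 and 0.122 to 0.351 under the combination in WT tumors. They were 0.0454 to 0.302 under IgG, 0.0371 to 0.153 under anti-PD1, 0.11 to 1.54 under anti-CD40 and 0.193 to 0.572 under the combination in HET tumors. A single HET anti-CD40 tumor, replicate 3, gave 42 of the 78 reads of Ltb in its group. Lta, which forms complexes with Ltb, had 61 reads and none in 7 libraries. Tnfsf14 had 161 reads: HET IgG tumors held 1, 0, 0 and 1, HET anti-CD40 tumors 2, 0, 15 and 22 and HET combination tumors 6, 3, 12 and 9. HET anti-PD1 tumors held 2, 0 and 1 reads. The WT IgG tumors held 1, 6, 2, 35 and 4 reads of Tnfsf14, most of them in replicate 4. The other WT tumors held 9, 4, 3 and 2 under anti-PD1, 3, 5 and 3 under anti-CD40 and 0, 1 and 9 under the combination. Ltb, Tnf and Lta lie side by side on chromosome 17, with 3.06 kb between Ltb and Tnf and 1.16 kb between Tnf and Lta.

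Among the death ligands, Tnfsf10 encodes TRAIL, which binds the death receptor of Tnfrsf10b. Tnfsf10 (ENSMUSG00000039304.7) lies on chromosome 3, at 27317028 to 27342427 on the plus strand. WT anti-CD40 tumors held 0.375, 0.383 and 0.937 CPM and HET anti-CD40 tumors 1.78, 2.24, 4.82 and 1.72 CPM. The groups did not overlap. HET IgG tumors held 0.36, 0.358, 1.63 and 1.85 CPM, HET anti-PD1 tumors 1.37, 0.798 and 1.34 and HET combination tumors 2.03, 2.07, 4.07 and 2.67. In WT tumors the values were 0.597, 0.84, 1.76, 0.25 and 2.12 CPM under IgG, 2.24, 2.04, 2.1 and 0.238 under anti-PD1 and 1.12, 1.26 and 1.37 under the combination. The lowest combination tumor of HET stood above the highest HET IgG tumor, and 1 HET IgG tumor exceeded the lowest of HET anti-CD40.

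Tnfsf10 averaged 2.64 ± 1.47 CPM (SD, n = 4) in HET and 0.565 ± 0.322 CPM (SD, n = 3) in WT under anti-CD40, a 4.67-fold ratio. The log2 difference was 2.05 ± 0.66 (SE; limma adjusted p = 0.590). With the L number in the model it was 0.71, with keratinocyte and muscle scores 1.38, and without both replicates 3 of HET anti-CD40 and HET combination 1.73. The combination in HET was 2.58-fold IgG, 1.59 ± 0.61 (limma adjusted p = 0.405). The exact permutation test, two-sided and unadjusted, gave p = 0.0286 for each of these pairs of Tnfsf10, the smallest their group sizes allow, and the pairs were again named because they did not overlap.

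Fasl, the ligand of Fas and a product of cytotoxic lymphocytes, had 62 reads in all. HET IgG tumors held 0, 0, 0 and 1 reads, HET anti-CD40 tumors 4, 2, 13 and 2 and HET combination tumors 7, 3, 9 and 2. HET anti-PD1 tumors held 1, 1 and 1. WT tumors held 0, 0, 0, 1 and 0 reads under IgG, 2, 3, 3 and 0 under anti-PD1, 0, 0 and 2 under anti-CD40 and 0, 0 and 5 under the combination. All HET tumors that received anti-CD40 held at least 2 reads of Fasl. WT anti-PD1 replicate 3, at 0.140 CPM, and WT combination replicate 3, at 0.176 CPM, lay above HET anti-CD40 replicates 2 and 4, at 0.0733 and 0.0636 CPM. At so few reads no fold is given. Fas, its receptor, averaged 0.88 ± 0.526 CPM (SD, n = 4) under anti-CD40 and 0.955 ± 0.376 CPM (SD, n = 4) under the combination in HET, against 0.371 ± 0.209 CPM (SD, n = 4) under IgG. The HET anti-CD40 range for Fas, 0.33 to 1.34 CPM, overlapped that of IgG, 0.0983 to 0.603.

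Per kilobase of exon, the receptors of TRAIL and TWEAK were more abundant than their ligands, at means of 2.48 CPM per kb for Tnfrsf10b and 0.296 for Tnfsf10, and 37.3 for Tnfrsf12a and 2.92 for Tnfsf12. Tnfrsf10b ran from 12.5 to 18.1 CPM under IgG, 13.4 to 16.8 under anti-PD1, 10.1 to 15.2 under anti-CD40 and 13.8 to 15.1 under the combination in WT tumors. In HET tumors it ran from 6.86 to 17.9 under IgG, 14.2 to 14.9 under anti-PD1, 10.3 to 15 under anti-CD40 and 10.1 to 12 under the combination. All 4 HET combination tumors were below all 3 WT combination and all 3 HET anti-PD1 tumors for Tnfrsf10b. WT tumors held Tnfrsf12a at 25.9 to 165 CPM under IgG, 33.6 to 124 under anti-PD1, 56.9 to 78.8 under anti-CD40 and 36.6 to 65.4 under the combination. HET tumors held 46.2 to 89.5 under IgG, 47.2 to 92.7 under anti-PD1, 44.5 to 247 under anti-CD40 and 41.6 to 94.2 under the combination. Its HET anti-CD40 mean, 111 ± 91.7 CPM (SD, n = 4), was the highest, and every pair of groups overlapped. The range of Tnfsf12 in WT tumors was 4.23 to 5.4 CPM under IgG, 3.28 to 5.41 under anti-PD1, 3.41 to 5.36 under anti-CD40 and 3.06 to 5.15 under the combination. The range in HET tumors was 2.42 to 6.98 under IgG, 3.28 to 4.12 under anti-PD1, 3.26 to 5.6 under anti-CD40 and 3.04 to 6.16 under the combination. Highest over lowest group mean was 1.31 for Tnfsf12.

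Tnfrsf21 encodes death receptor 6. The gene (ENSMUSG00000023915.4) lies on chromosome 17, at 43016555 to 43089189. WT anti-CD40 tumors held 2.75, 3.83 and 2.15 CPM and HET anti-CD40 tumors 5.11, 4.14, 8.97 and 4.84 CPM, without overlap. WT anti-PD1 tumors, at 6.9, 5.53, 10.4 and 3.56 CPM, included the highest library of all. The other groups held 1.79, 2.92, 3.57, 4.36 and 2.22 CPM (WT IgG), 2, 2.96 and 4.43 (WT combination), 2.82, 1.61, 3 and 4.15 (HET IgG), 6.26, 1.91 and 3.41 (HET anti-PD1) and 3.11, 3.51, 7.36 and 5.5 (HET combination). The ratio of the anti-CD40 means, HET over WT, was 1.98, and the log2 difference 0.94 ± 0.42 (SE; limma adjusted p = 1.00). With keratinocyte and muscle scores in the model it was 0.62. The exact permutation test for Tnfrsf21, two-sided and unadjusted, gave p = 0.0571.

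**Figure D3:**
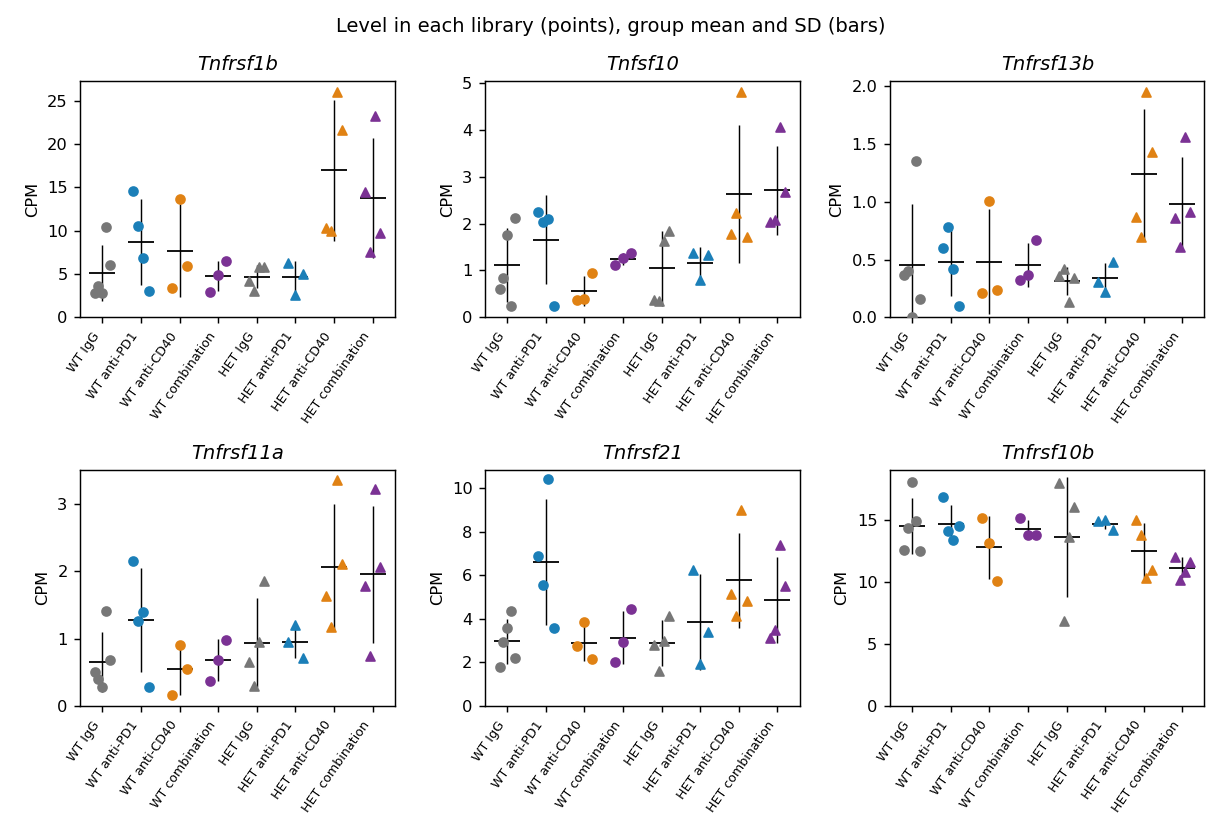
CPM of Tnfrsf1b, Tnfsf10, Tnfrsf13b, Tnfrsf11a, Tnfrsf21 and Tnfrsf10b in each of the 30 libraries (points; circles, WT; triangles, HET), with the mean (horizontal bar) and SD (vertical bar) of each group. HET anti-CD40 and HET combination tumors lie above HET IgG for Tnfrsf1b, and a WT anti-PD1 tumor has the highest value of Tnfrsf21, 10.4 CPM.

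Among the costimulatory pairs of T cells, the most abundant ligand was even and the receptors were not. For Tnfsf9, WT tumors spanned 13 to 18.8 CPM under IgG, 10.4 to 19.4 under anti-PD1, 13.2 to 15.4 under anti-CD40 and 12.7 to 15.7 under the combination. The HET tumors spanned 11.5 to 13.8 under IgG, 11.6 to 14.2 under anti-PD1, 12.2 to 16.1 under anti-CD40 and 10.8 to 12.9 under the combination. Tnfsf9 had the smallest spread within groups of the members tested. The noncoding gene Gm11110, on the opposite strand, overlaps 14.9% of the exon bases of Tnfsf9. Without stated strand, reads of the shared bases cannot be told apart. Levels of Tnfrsf9 were 2.21 to 11.8 CPM under IgG, 7.33 to 27.4 under anti-PD1, 7.08 to 12.9 under anti-CD40 and 3.87 to 14.1 under the combination in WT tumors. They were 1.55 to 9.3 under IgG, 4.08 to 12.5 under anti-PD1, 3.79 to 12.4 under anti-CD40 and 4.61 to 7.43 under the combination in HET tumors. Its highest mean was in WT anti-PD1, 14.4 ± 9.47 CPM (SD, n = 4), and its lowest in HET combination, 5.82 ± 1.22 CPM (SD, n = 4). The Tnfrsf9 groups overlapped between those conditions.

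The receptors OX40 and GITR are encoded next to each other on chromosome 4, 9.55 kb apart. Tnfrsf4 (OX40) averaged 1.59 ± 0.938 CPM (SD, n = 4) in HET anti-CD40 tumors and 0.638 ± 0.495 CPM (SD, n = 4) in HET IgG tumors. Its highest library, 3.66 CPM, was a WT anti-PD1 tumor. Tnfrsf18 (GITR) had the largest ratio of highest to lowest group mean among the tested members, 8.16, from 0.212 ± 0.0308 CPM (SD, n = 3) in WT combination to 1.73 ± 1.57 CPM (SD, n = 4) in HET anti-CD40. The 4 HET anti-CD40 tumors held 0.227, 0.55, 2.76 and 3.37 CPM of Tnfrsf18, and replicates 3 and 4 were far above the other 2. The antisense gene Gm16008 overlaps 27.2% of the exon bases of Tnfrsf18, and without stated strand their reads cannot be told apart.

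Tnfrsf25 ran from 2.15 to 4.06 CPM under IgG, 3.1 to 7.93 under anti-PD1, 1.1 to 2.41 under anti-CD40 and 2.19 to 3.3 under the combination in WT tumors. In HET tumors it ran from 0.239 to 4.49 under IgG, 1.37 to 2.75 under anti-PD1, 1.72 to 2.99 under anti-CD40 and 2.24 to 4.32 under the combination. Tnfrsf25 encodes death receptor 3, which costimulates T cells, and its lowest library was HET IgG replicate 2 at 0.239 CPM. WT tumors held Tnfsf18 at 0.0885 to 0.453 CPM under IgG, 0.0431 to 0.441 under anti-PD1, 0.0958 to 0.167 under anti-CD40 and 0.281 to 0.419 under the combination. HET tumors held 0 to 0.339 under IgG, 0.148 to 0.343 under anti-PD1, 0.159 to 0.341 under anti-CD40 and 0.127 to 0.878 under the combination. Tnfsf18 (GITR ligand) had 199 reads in all. Tnfrsf8 had 233 reads, with 4, 9, 5, 6 and 15 in WT IgG, 12, 14, 19 and 5 in WT anti-PD1, 1, 9 and 15 in WT anti-CD40 and 2, 2 and 5 in the WT combination tumors. The HET tumors held 5, 2, 9 and 5 reads of Tnfrsf8 under IgG, 12, 1 and 5 under anti-PD1, 6, 11, 8 and 12 under anti-CD40 and 10, 10, 6 and 8 under the combination. Cd27, the receptor of CD70 on lymphocytes, had 80 reads and none in 9 libraries. HET anti-CD40 tumors held 0, 5, 16 and 3 reads of Cd27, and HET combination tumors 2, 2, 15 and 7. Tnfsf8 had 41 reads, 20 of them in the HET combination tumors.

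**Figure D4:**
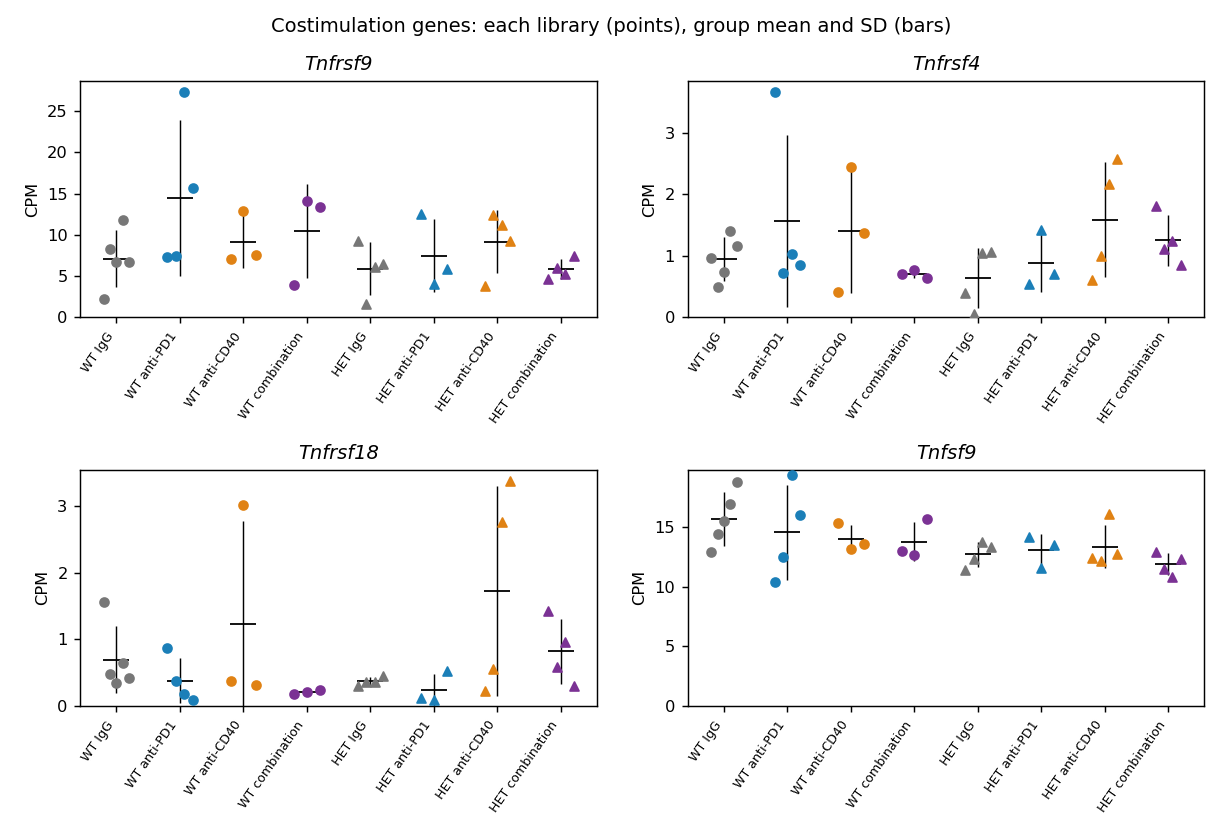
CPM of Tnfrsf9, Tnfrsf4, Tnfrsf18 and Tnfsf9 in each library (points; circles, WT; triangles, HET), with the mean (horizontal bar) and SD (vertical bar) of each group. Tnfsf9 stays between 10.4 and 19.4 CPM, and Tnfrsf18 spreads from 0.227 to 3.37 CPM within the HET anti-CD40 group alone.

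The B cell axis was sparse. Tnfrsf13b encodes TACI, a receptor of BAFF and APRIL (ENSMUSG00000010142.8, chromosome 11, 61126755 to 61149372). HET IgG tumors held 0.36, 0.417, 0.136 and 0.339 CPM, HET anti-CD40 tumors 0.871, 0.697, 1.95 and 1.43 and HET combination tumors 0.858, 0.608, 1.56 and 0.912. The 8 tumors that received anti-CD40 lay above the 4 IgG tumors. HET anti-PD1 tumors held 0.305, 0.222 and 0.482 CPM. WT tumors held 0.368, 0.398, 0, 1.35 and 0.159 CPM under IgG, 0.603, 0.781, 0.42 and 0.095 under anti-PD1, 0.208, 1.01 and 0.234 under anti-CD40 and 0.326, 0.365 and 0.668 under the combination. One WT IgG tumor had no read of Tnfrsf13b and another had 1.35 CPM.

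Under anti-CD40 the HET mean of Tnfrsf13b was 3.95-fold that of IgG, with a log2 difference of 1.71 ± 0.63 (SE; limma adjusted p = 0.257). Under the combination it was 3.14-fold, 1.43 ± 0.63 (limma adjusted p = 0.461). Within L7 the anti-CD40 difference was 1.80. With keratinocyte and muscle scores in the model the combination difference was 0.94. The range of Tnfsf13b in WT tumors was 0.0442 to 0.226 CPM under IgG, 0 to 0.187 under anti-PD1, 0 to 0.383 under anti-CD40 and 0 to 0.246 under the combination. The range in HET tumors was 0 to 0.298 under IgG, 0 to 0.229 under anti-PD1, 0.183 to 0.772 under anti-CD40 and 0.193 to 0.811 under the combination. Tnfsf13b (BAFF) had 170 reads in all. For Tnfsf13, WT tumors spanned 0.0919 to 0.531 CPM under IgG, 0.285 to 0.839 under anti-PD1, 0.208 to 0.431 under anti-CD40 and 0.419 to 0.608 under the combination. The HET tumors spanned 0.119 to 0.499 under IgG, 0.191 to 0.445 under anti-PD1, 0.303 to 0.446 under anti-CD40 and 0.27 to 0.663 under the combination. Tnfsf13 (APRIL) shares 60.05% of its exon bases with the readthrough gene, so reads of Tnfsf12, Tnfsf13, Tnfsf12Tnfsf13 and Tnfsf13os may be divided between them in a way that is uncertain. Tnfsf12Tnfsf13 had 265 reads and Tnfsf13os 226.

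RANK, the receptor of RANK ligand, is encoded by Tnfrsf11a (ENSMUSG00000026321.7, chromosome 1, 105780718 to 105847981). WT anti-CD40 tumors held 0.167, 0.91 and 0.547 CPM and HET anti-CD40 tumors 1.63, 1.17, 3.35 and 2.1, without overlap. HET IgG tumors held 0.655, 0.298, 0.953 and 1.85 CPM, HET anti-PD1 0.954, 1.2 and 0.705 and HET combination 1.78, 0.746, 3.22 and 2.06. WT tumors held 0.506, 0.398, 0.283, 1.4 and 0.688 CPM under IgG, 2.15, 1.26, 1.4 and 0.285 under anti-PD1 and 0.373, 0.689 and 0.984 under the combination. The anti-CD40 ratio of HET to WT was 3.81, a log2 difference of 1.90 ± 0.62 (SE; limma adjusted p = 0.590). For Tnfrsf11a it was 1.31 with keratinocyte and muscle scores in the model, 1.34 without WT anti-CD40 replicate 1 and 2.56 with library weights. Tnfsf11, its ligand, had 53 reads and none in 17 libraries. Levels of Tnfsf11 were 0 to 0.138 CPM under IgG, 0 to 0.259 under anti-PD1, 0 to 0.117 under anti-CD40 and 0 to 0.0703 under the combination in WT tumors. They were 0 to 0.0377 under IgG, 0 to 0.0443 under anti-PD1, 0.0367 to 0.221 under anti-CD40 and 0 to 0.319 under the combination in HET tumors. The HET combination held 23 of those reads.

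Per kilobase of exon, the decoy receptors were more abundant than RANK and its ligand, at means of 6.07 CPM per kb for Tnfrsf11b, 2.76 for Tnfrsf22, 0.193 for Tnfrsf11a and 0.0289 for Tnfsf11. Tnfrsf11b ran from 10.7 to 34.8 CPM under IgG, 8.1 to 13.4 under anti-PD1, 7.9 to 17.4 under anti-CD40 and 15 to 30.5 under the combination in WT tumors. In HET tumors it ran from 9.4 to 26.4 under IgG, 11.3 to 17.8 under anti-PD1, 15.2 to 30.5 under anti-CD40 and 11.8 to 30.4 under the combination. Tnfrsf11b, the soluble decoy of RANK ligand, was highest on average in the WT combination. WT tumors held Tnfrsf22 at 9.91 to 13.7 CPM under IgG, 9.52 to 12.2 under anti-PD1, 9.68 to 13.3 under anti-CD40 and 12 to 17.6 under the combination. HET tumors held 11.3 to 15.2 under IgG, 9.64 to 10.6 under anti-PD1, 8.2 to 12.4 under anti-CD40 and 7.56 to 17 under the combination. Tnfrsf22 and Tnfrsf23, decoy receptors of TRAIL, lie with Tnfrsf26 on chromosome 7, 6.08 kb and 16.1 kb apart. Tnfrsf23 was highest in WT anti-PD1, at 4.32 ± 1.64 CPM (SD, n = 4). Tnfrsf26 averaged 2.31 ± 0.712 CPM (SD, n = 4) in HET anti-CD40 and 1.16 ± 0.552 CPM (SD, n = 4) in HET IgG. Tnfrsf19, found in skin and neural tissue, was highest in HET anti-PD1, at 10.8 ± 6.15 CPM (SD, n = 3).

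The genes that act downstream of the receptors were followed from a list. Of 36 adaptors, kinases, caspases and NF-kappaB genes tested, none was called in any comparison. For HET anti-CD40 against HET IgG, 2 stood higher and 1 lower at unadjusted p under 0.05, with a median log2 difference of -0.13. Over all 18975 genes with no filter, 9.0% stood higher and 5.9% lower at that p. The 23 superfamily members tested had a median of 0.56 in that comparison, and all genes -0.01. Bid, a death effector cleaved by caspase-8, did not overlap between those groups, at 0.44 ± 0.21 (SE; limma adjusted p = 0.322). Of all genes, 3.37% were higher without overlap there. Of the family genes outside the choice, 4 of 6 were tested and none was called. Nfkb2 had a log2 difference of -0.47 in HET anti-PD1 against HET IgG, without overlap (limma adjusted p = 1.00). Ikbkb, a kinase of NF-kappaB activation, had one of -0.34 in WT anti-CD40 against WT IgG, without overlap (limma adjusted p = 0.621). Of all genes, 1.12% were lower without overlap in the comparison of Nfkb2 and 1.07% in that of Ikbkb. Single genes of a list of 36 are too few to read against such shares. Cd40 in the combination was higher in HET than in WT by 1.31 ± 0.58 (limma adjusted p = 0.802).

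Marker lists of several other cell types had higher means in the same HET groups, and the melanocyte list had lower ones. Lists of B cells, dendritic cells, neutrophils and endothelial cells were scored too, and their values are not given here. The macrophage list (9 of 10 markers tested) summed to 153 to 256 CPM in HET IgG, 338 to 916 in HET anti-CD40 and 299.8 to 902 in HET combination. All 9 were higher for anti-CD40 than for IgG, 5 of them at unadjusted p under 0.05, and none was called. The T cell list (14 markers, 5 tested) summed to 25.9 to 39.6 CPM in HET IgG, 29.0 to 83.5 in HET anti-CD40 and 29.9 to 63.6 in HET combination. The NK and cytotoxic list summed to 0.239 to 0.641, 1.17 to 13.8 and 1.68 to 5.10 CPM in that order.

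Keratinocyte and muscle markers varied more. The 12 keratinocyte markers summed to 9.20 to 15.6 CPM in HET IgG, 8.94 to 944 in HET anti-CD40, 10.8 to 361 in HET combination and 12.7 to 2111 in WT anti-CD40. Dsg3, Flg and Ivl had no read in HET IgG. The 9 muscle markers summed to 4.03 to 287, 33.0 to 533 and 63.5 to 299 CPM in the 3 HET groups above. The 5 adipocyte markers summed to 23.97 to 41.8, 52.6 to 133.5 and 61.9 to 167 CPM, and all 5 were higher than under IgG at unadjusted p under 0.05 in both groups that received anti-CD40. The 7 fibroblast markers summed to 130.1 to 591, 322 to 802 and 486 to 998 CPM, with 3 higher at that p under anti-CD40 and 6 under the combination. Melanocyte markers summed to 28103 to 57652, 19463 to 31246 and 23272 to 29999 CPM, with 3 of 7 lower at that p under anti-CD40 and 1 under the combination. Over all 18975 genes with no filter, 9.0% were higher and 5.9% lower at that p under anti-CD40. Under the combination the shares were 7.37% and 3.07%.

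Marker lists also moved between HET and WT tumors of the same treatment. Of the 9 muscle markers, 8 were higher in HET at unadjusted p under 0.05 both under anti-CD40 and under the combination. They summed to 7.09 to 31.2 CPM in WT anti-CD40 and 4.33 to 34.5 CPM in WT combination, below every HET library of the same treatment. Of the 9 macrophage markers, 4 were higher in HET at that p under anti-CD40 and 5 under the combination, and all 3 NK and cytotoxic markers tested were so under both. Of the 12 keratinocyte markers, none was higher at that p under anti-CD40 and 8 under the combination, and of the 5 adipocyte markers 1 and 5. None of these markers was called. Over all 18975 genes with no filter, 3.46% were higher in HET at that p under anti-CD40 and 4.83% under the combination. The part of any of these cell types in the superfamily values was not tested, except where values with keratinocyte and muscle scores in the model are given.

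**Figure D5:**
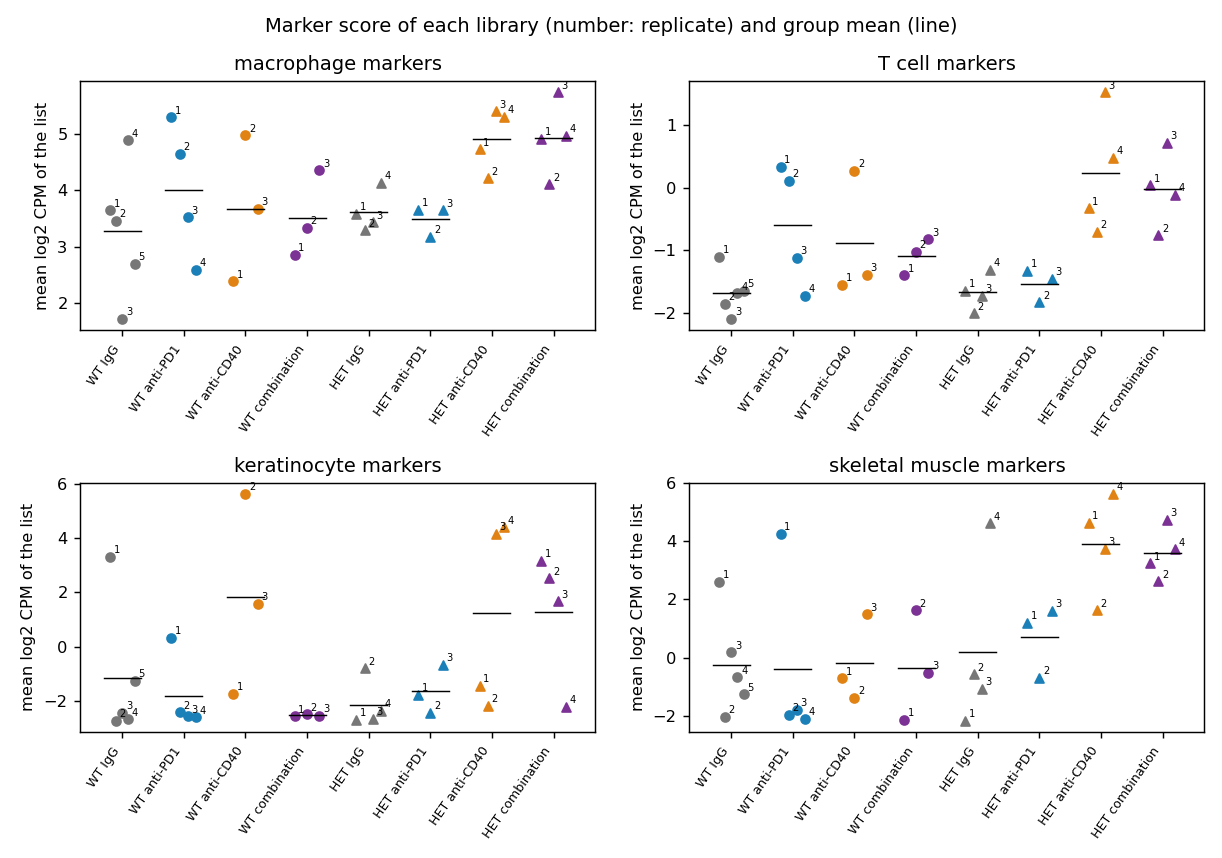
Mean log2 CPM of the macrophage, T cell, keratinocyte and skeletal muscle marker lists in each library (points, numbered by replicate), with the group mean as a line. The macrophage mean is 4.91 in HET anti-CD40 and 4.93 in HET combination, against 3.61 in HET IgG.

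A few libraries carried many of the high values. HET anti-CD40 replicate 3 was among the 3 highest libraries for 18 of the 36 members and the highest for 8. HET anti-CD40 replicate 4 was among them for 12, HET combination replicate 3 for 11 and WT anti-PD1 replicate 1 for 8. The highest group mean was in HET anti-CD40 for 15 members. These counts were not made over all genes, so they describe the libraries and cannot be read as particular to the members. Without both replicates 3, members higher at unadjusted p under 0.05 numbered 4 for HET anti-CD40 against IgG (11.1%, against 4.69% of genes). They numbered 6 for the combination against IgG (16.7%, against 4.77%). For HET against WT they numbered 2 under anti-CD40 (5.56%, against 1.97%) and 2 under the combination (5.56%, against 2.88%).

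The same 4 comparisons were made with keratinocyte and muscle scores in the model. Members higher at unadjusted p under 0.05 numbered 4 (11.1%, against 1.9% of genes), 3 (8.33%, against 3.21%), 0 (0%, against 2.14%) and 2 (5.56%, against 1.12%). With the L number they were 9 (25%, against 9.6%), 2 (5.56%, against 1.35%), 1 (2.78%, against 0.917%) and 0 (0%, against 0.474%). For HET anti-CD40 against IgG, leaving out HET anti-CD40 replicate 3 alone gave 4 (11.1%, against 4.78%) in place of 12. Leaving out HET anti-CD40 replicate 4, HET IgG replicate 1 or HET IgG replicate 2 gave 7 (19.4%, against 4.94%, 7.42% and 8.92%). For HET against WT anti-CD40, 7 became 2 without HET replicate 3 (5.56%, against 1.98%) or WT replicate 1 (5.56%, against 2.25%). It became 3 without WT replicate 3 (8.33%, against 3.01%). For HET against WT combination, 5 became 1 without HET replicate 3 (2.78%, against 2.58%) and 2 without WT replicate 1 (5.56%, against 2.23%). It became 3 (8.33%) without HET replicate 1 (against 3.53%), HET replicate 4 (against 5.51%) or WT replicate 2 (against 3.65%). Without HET replicate 2 it became 8 (22.2%, against 5.46%). Over all libraries left out in turn the counts ran from 4 to 14, 6 to 12, 2 to 8 and 1 to 8. Those counts are 11.1% to 38.9%, 16.7% to 33.3%, 5.56% to 22.2% and 2.78% to 22.2% of members. The shares of genes ran from 4.78% to 12.5%, 4.54% to 9.83%, 1.98% to 4.7% and 2.23% to 5.58%.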

How the data were processed

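RNA of 30 B16F10 tumors in 8 groups was sequenced. Per the submitters' processing notes, STAR, edgeR and the mm10 build were used (versions not given in the sources used here). The deposited values are log2 CPM made by the authors, and a gene without a read has -3.64. Whole reads could be taken back for 100% of values within 0.01 reads, and levels are given as CPM from those reads (17.6 M to 36 M per library). Strandedness and annotation release are not given in the sources used here.

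The 36 members and all lists were chosen with earlier results of these data known. Genes with log2 above 0 in at least 3 libraries (15002) were fitted with limma 3.58.1 in R 4.3.3, with 1 mean per group over all 30 libraries and an intensity trend. For 17 comparisons p-values were adjusted by Benjamini-Hochberg, with a call under 0.05. Counts over all 36 members come from the same fit without the filter, over 18975 genes. For named members the 2 groups were also compared by an exact permutation test. Exon lengths and coordinates (1-based) are from GENCODE vM21 on mm10, which held all 36 members, and promoter windows are from RefSeq. Member values are given for the 2 ligands and 2 receptors of highest level per kilobase in each of 5 roles, and for members with unadjusted p under 0.05 and groups that do not overlap in a comparison with IgG or of HET with WT, among the 23 that passed the filter. Fasl, Tnfsf14 and Tnfrsf8 met these conditions only in the fit without the filter, and their reads are given. The test script was checked on simulated data. Alternatives covered the filter, pseudocount, scaling, voom, library weights, covariates, replicate numbers and each library left out. The same replicate numbers in different groups did not mark paired samples. The number of reads limits the scarce members: 1 read more or less in a library changes their log2 values.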

Additional observations from a re-analysis of the deposited data

Results flagged for a closer look

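Single libraries stood apart within groups of 4 or 5 for 8 of 105 sets of values of the members given in full, where chance alone gives about 1 in 20 for values without ties. Values are log2 CPM. Tnfrsf1a was lowest in HET combination replicate 4, at 6.76 (108 CPM against 141 to 144 CPM in the other 3). Tnfsf9 was highest in HET anti-CD40 replicate 3, at 4.02, and Tnfsf12 lowest in HET anti-CD40 replicate 1, at 1.74. In WT anti-PD1 replicate 4, Tnfsf10 was lowest at -1.66 (5 reads) and Tnfsf13b lowest at -3.64 (0 reads). Tnfsf11 had reads in 1 library only of 3 groups: WT IgG replicate 1 at -2.20 (3 reads), WT anti-PD1 replicate 1 at -1.56 (6 reads) and HET IgG replicate 4 at -3.09 (1 read). In those 3 sets every other library had 0 reads, so any read stands apart and the rate of 1 in 20 does not apply. The cause of these values was not tested.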

How the results depend on the processing

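No member or other gene was called under the main model with limma, although genes at unadjusted p under 0.05 numbered 2230 for HET anti-CD40 against IgG and 1472 for HET combination against IgG. Library weights were the alternative that gave calls among members: 1 for HET combination against HET IgG (Tnfrsf10b, log2 difference -0.61, adjusted p = 0.0284) and 2 for HET combination against HET anti-PD1 (Tnfrsf10b, -0.40, adjusted p = 0.0282, and Tnfrsf1b, 1.38, adjusted p = 0.0340). With those weights, calls over all genes were 50 for HET anti-PD1 against IgG, 60 for HET anti-CD40 against IgG, 407 for HET combination against IgG, 23 for HET against WT combination and 2273 for HET combination against HET anti-PD1. The cause was not tested. Leaving out 1 library at a time gave from 0 to 1 called gene for HET anti-PD1 against IgG, 0 to 1 for HET anti-CD40 against IgG, 0 to 6 for HET combination against IgG and 0 to 1 for HET combination against HET anti-PD1. The 9 differences of named members kept their direction and stayed short of the threshold in 358 of 358 alternatives. These pairs were named because their groups did not overlap, so leaving out 1 library could not reverse a direction. Of up to 40 alternatives per difference, 30 were of that kind. Leaving out a library of another group does not change a difference at all. The kept direction is therefore no support in those alternatives. Tnfrsf13b did not pass the stricter filter (log2 above 1 in 3 libraries). On log2(CPM + 1), which compresses low values, differences were smaller: 1.16 for Tnfsf10 and 0.97 for Tnfrsf11a in HET against WT anti-CD40, and 0.74 for Tnfrsf13b in HET anti-CD40 against IgG. With the replicate number as a replicate block, 0 members and 0 genes were called. Over 94 pairs of libraries with the same number, the median correlation of deviations was -0.02, so the numbers do not pair the samples.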
